A study of Mus musculus with 12 samples.

Results

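The comparison described here is that of 24 h without food against free feeding in mouse liver, averaged over 2 kinds of virus injection, and the genes described are those that changed in the same direction after both. All 12 arrays of the series entered it, 6 from fasted and 6 from fed mice, chosen by the feeding state in their labels. Each state held 3 arrays from mice given an adenovirus expressing Cre recombinase (Adeno-Cre) and 3 from mice given one expressing green fluorescent protein (Adeno-GFP), which makes 4 groups of 3. All animals were male, of strain C57Bl/6N per the labels, 2 months old, and homozygous for floxed p53 (p53 fl/fl; the allele is given as Trp53tm1Brn/J), and all were kept on standard chow. Virus was given into the tail vein at equal titers, and 3 days passed before mice were fasted or fed ad libitum. Thus the animals of both feeding states carried floxed alleles and had received virus, no uninjected or wild-type liver entered the comparison, and Cre acts only in the cells the virus reached. The floxed gene itself was not analysed here, so the deletion was not checked. The hour of killing and whether one animal gave each array are not given in the labels. P-values therefore measure the spread between these arrays.

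The liver turns over its fuel supply when food is withdrawn. With feeding, insulin favours glycolysis, fatty acid synthesis and, through the SREBP factors, cholesterol synthesis. With fasting, fatty acids from adipose tissue activate PPARA, a nuclear receptor that induces the enzymes of mitochondrial, peroxisomal and microsomal fatty acid oxidation, while glucagon and glucocorticoids promote amino acid breakdown, urea formation and glucose output. Growth hormone signalling through STAT5, which maintains the male pattern of liver genes, is known to weaken in fasting.

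Values are deposited log2 expression levels, so a difference of 1 is a 2-fold change, and 22180 genes were tested. Within a group, pairs of arrays had correlations between 0.991 and 0.994. One fasted Adeno-Cre array, replicate 3, stood apart: its deviations from its group mean had an SD of 0.163 against 0.13 to 0.138 for the other arrays, and its highest correlation with an array of another group (0.991) equalled those with its own group (0.991). Hepatocyte markers were present at similar levels in both states, with 2 of 12 measured markers higher (1 in each of the 12 fits that left out an array), and with a mean over them of 11.43 to 11.59 on fed arrays and 11.5 to 11.67 on fasted arrays. In whole liver, fewer cells of a type and less RNA per cell cannot be told apart.

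Fasting averaged over the injections changed 1850 of 22180 genes (8.34%) at a limma adjusted p under 0.05. Of these, 891 rose (4.02%) and 959 fell (4.32%). After Adeno-GFP alone 682 genes passed (3.07%), 267 higher (1.2%) and 415 lower (1.87%), and after Adeno-Cre alone 592 passed (2.67%), 333 higher (1.5%) and 259 lower (1.17%). A gene is said here to have moved alike when the averaged contrast and both single contrasts passed in 1 direction. This held for 256 genes (1.15%), of which 144 were higher (0.649%) and 112 lower (0.505%) with fasting. The 2 single contrasts share no arrays, and the 256 genes were 37.5% of the Adeno-GFP calls and 43.2% of the Adeno-Cre calls. One gene, described at the end, passed in both with opposite directions. Sign was shared more widely than the threshold: 650 of the 682 Adeno-GFP calls (95.3%) and 552 of the 592 Adeno-Cre calls (93.2%) had the same sign after the other injection. Of the 1850 averaged calls, 932 passed in neither injection alone and 662 in 1 of them.

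Moving alike is a statement about direction, and the sizes were compared separately. The difference between the fasting changes passed for 1 gene (0.00451%; 1676 genes had an unadjusted p under 0.05 in limma), and none of the 256 was that gene. A missing call does not show equal sizes. The 95% interval of the difference lay within 1 log2 unit on either side of 0 for 240 of the 256 genes and reached past it for 16; over all genes it lay within for 21263. Of the 256, 126 had the larger change after Adeno-GFP. The median size of the averaged change was 0.62 and the smallest 0.31, and 41 genes reached 2-fold, 19 higher and 22 lower. The 6 fasted and 6 fed arrays did not overlap for 222 of the 256, against 878 of all genes (3.96%). The largest rises and falls described below were picked among those 222, so their lack of overlap follows from the choice. Over the 22180 genes, whose values are not independent of each other, the changes after the 2 injections correlated at 0.512 (Pearson) and 0.345 (Spearman).

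**Figure D1:**
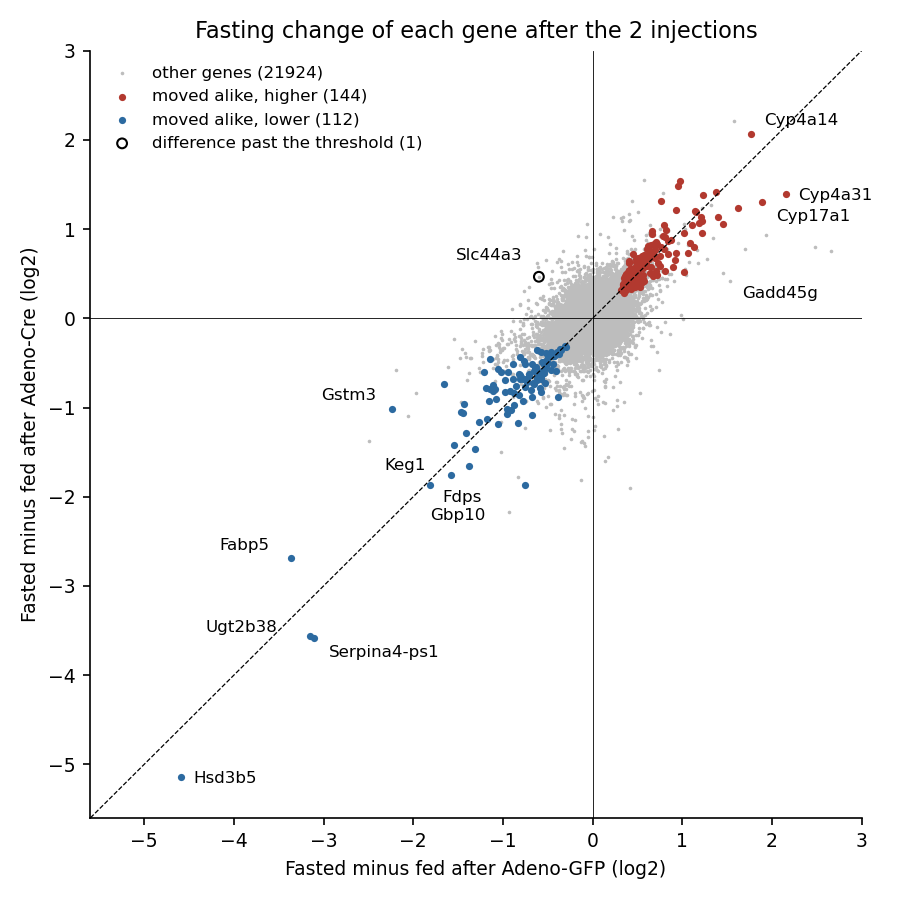
Change with fasting of each gene after Adeno-GFP (horizontal, log2) and after Adeno-Cre (vertical, log2), with the line of equal change dashed. The 144 genes that rose alike (red) and the 112 that fell alike (blue) have the same sign after both injections by the way they were chosen. Slc44a3 (circle) has opposite signs in the 2 injections.

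The count of 256 changed with the arrays that entered the fit. Leaving out 1 array gave 238 genes without fasted Adeno-Cre replicate 3, the array that stood apart, and 189 without fasted Adeno-GFP replicate 2. It gave 105, 143, 131, 146 and 132 without fasted Adeno-Cre replicates 1 and 2 and fed Adeno-Cre replicates 1, 2 and 3, and 169, 170, 141, 138 and 166 without fasted Adeno-GFP replicates 1 and 3 and fed Adeno-GFP replicates 1, 2 and 3. All 256 genes kept the averaged call in each of these 12 fits, and 68 met the whole rule in every one. Among the genes picked by the naming rule given below, the alike rule was met in at most 3 of the 12 fits by Col1a2, Cyp4f15, Ei24, Fkbp5, Igfbp2, Mir1948, Pdk4, Plin2, Pnpla2, Ppargc1a, Slc25a15 and Thrsp. For other genes called alike in the text this number is not given. Nearest the limit, Rtf2 was inside with its largest adjusted p at 0.0499 (limma) and Fam25c outside with 0.0501.

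Genes of cholesterol synthesis were lower in fasted liver after both injections. Of 20 measured genes of sterol synthesis and its control, 15 fell, 1 rose and 4 did not pass, and 9 fell alike. For scale, 4.32% of all genes fell, 4.02% rose and 0.505% fell alike. The median change was -0.54, against 0.01 over all genes. The genes that fell cover most of the path from acetyl units to cholesterol. Hmgcs1, which makes the HMG-CoA that enters the pathway, fell by 0.79 (SE 0.097, limma adjusted p = 0.000549). Fdps makes farnesyl diphosphate, the branch point to sterols. It measured 10.98, 10.98 and 11.23 on the fed Adeno-GFP arrays, 9.33, 9.23 and 9.19 on the fasted Adeno-GFP arrays, 10.96, 10.76 and 10.78 on the fed Adeno-Cre arrays and 8.72, 8.80 and 9.37 on the fasted Adeno-Cre arrays. Its fed and fasted arrays did not overlap, and fasted Adeno-Cre replicate 3 was the highest of the fasted ones. Fdps fell by 1.84 (SE 0.10, 3.59-fold, limma adjusted p = 1.56e-06), -1.82 after Adeno-GFP and -1.87 after Adeno-Cre.

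Later steps fell as well. Sqle, squalene epoxidase, measured 9.78 to 10.28 (median 9.93) on the 6 fed arrays and 7.98 to 8.88 (median 8.68) on the 6 fasted arrays, and it fell by 1.39 (SE 0.13, limma adjusted p = 0.000102). Lss, which closes the sterol ring, fell by 0.63 (SE 0.077). Cyp51, lanosterol demethylase, measured 10.3 to 10.7 (median 10.46) fed and 8.9 to 9.36 (median 9.1) fasted, a fall of 2.55-fold (limma adjusted p = 3.29e-06). The fed and fasted ranges did not overlap in either gene. Nsdhl, which acts on the same methyl groups after Msmo1, measured 11.18, 11.16 and 11.28 on the fed Adeno-GFP arrays, 9.80, 9.60 and 9.58 on the fasted Adeno-GFP arrays, 11.04, 11.02 and 11.03 on the fed Adeno-Cre arrays and 9.53, 9.58 and 9.74 on the fasted Adeno-Cre arrays. It had the smallest adjusted p of the named genes (limma, 1.84e-07), with a fall of 2.79-fold and a 95% interval of -0.14 to 0.39 for the difference between the injections. Msmo1 fell by 0.99 and Stard4, a sterol carrier, by 0.97, both alike. Ebp (-0.07), Hsd17b7 (-0.16), Mvk (-0.26) and Srebf2 (-0.09), the factor that drives the pathway, did not pass.

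The 2 Insig genes, whose proteins hold SREBP precursors in the endoplasmic reticulum, went in opposite directions. Insig1, itself an SREBP target, fell by 0.69 (SE 0.083, limma adjusted p = 0.000478). Insig2, known to rise in fasting liver when insulin is low, measured 8.85, 8.71 and 8.85 on the fed Adeno-GFP arrays, 10.50, 10.35 and 9.91 on the fasted Adeno-GFP arrays, 8.51, 8.93 and 8.64 on the fed Adeno-Cre arrays and 9.92, 9.83 and 9.49 on the fasted Adeno-Cre arrays. Every fasted array lay above every fed array. Insig2 rose by 1.25 (SE 0.11, 2.38-fold, limma adjusted p = 7.77e-05), 1.45 after Adeno-GFP and 1.06 after Adeno-Cre.

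Promoter windows from RefSeq (GRCm38.p6; the build behind the array annotation is not given) were searched for short motifs in both strands, in 300 bases from 250 before to 50 after each start, for the 16918 measured genes that have one. The motifs were searched because SREBP factors bind TCACNCCAC and the E-box CACGTG. TCACNCCAC was in the windows of 1 of 16 sterol genes (6.25%), 1.43% of all genes, 2.63% of the genes higher alike and 2.17% of those lower alike. CACGTG was in 4 of 16 sterol genes (25%), 9.22% of all genes, 13.2% of those higher alike and 5.43% of those lower alike. The first sequences show the match in a sterol gene that fell, the E-box of Insig1, and a match to TCACNCCAC on the other strand in Ehhadh, a fatty acid oxidation gene that rose. Hmgcs1 lies at chr13:119690101-119690350 on the plus strand with its match 137 bases before the start, Insig1 at chr5:28071162-28071411 on the plus strand with its match 101 bases before, and Ehhadh at chr16:21787835-21788084 on the minus strand with its match 171 bases before. Each is the 250 bases upstream of the start, 5′ to 3′, with the match in capitals.
Hmgcs1: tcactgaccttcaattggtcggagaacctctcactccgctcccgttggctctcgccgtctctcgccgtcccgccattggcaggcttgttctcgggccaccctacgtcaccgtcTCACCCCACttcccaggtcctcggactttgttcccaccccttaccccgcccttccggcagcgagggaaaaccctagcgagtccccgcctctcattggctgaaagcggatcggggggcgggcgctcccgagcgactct
Insig1: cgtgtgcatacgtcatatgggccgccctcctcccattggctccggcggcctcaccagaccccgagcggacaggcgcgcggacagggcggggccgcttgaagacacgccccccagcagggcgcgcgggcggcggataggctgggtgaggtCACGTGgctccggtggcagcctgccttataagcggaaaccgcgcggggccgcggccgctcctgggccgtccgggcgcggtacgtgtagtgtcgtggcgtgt
Ehhadh: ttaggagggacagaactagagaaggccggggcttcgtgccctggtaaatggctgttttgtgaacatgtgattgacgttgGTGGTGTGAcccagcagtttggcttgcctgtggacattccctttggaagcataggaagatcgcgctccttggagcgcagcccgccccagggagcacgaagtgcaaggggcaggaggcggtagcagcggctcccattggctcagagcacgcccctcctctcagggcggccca
A match is a run of letters and not a measured binding site.

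Fatty acid synthesis moved in the same direction as sterol synthesis. Of 27 measured genes of fatty acid and triglyceride synthesis 13 fell and 2 rose, where 4.32% of all genes fell and 4.02% rose. Among the 27, 7 were lower and 1 higher alike (0.505% and 0.649% of all genes), and the median was -0.19. Fasn, fatty acid synthase, measured 9.10, 9.51 and 9.78 on the fed Adeno-GFP arrays, 7.60, 7.99 and 7.84 on the fasted Adeno-GFP arrays, 8.96, 8.93 and 8.73 on the fed Adeno-Cre arrays and 8.14, 8.24 and 8.01 on the fasted Adeno-Cre arrays. The fed and fasted arrays did not overlap, and the fed Adeno-Cre arrays lay below the fed Adeno-GFP arrays. Fasn fell by 1.20 (SE 0.11, limma adjusted p = 7.77e-05), -1.65 after Adeno-GFP and -0.74 after Adeno-Cre, and the 95% interval of the difference was 0.44 to 1.39. Elovl6, which lengthens its product, fell by 1.20 (SE 0.15), also alike. Scd1, the desaturase, measured 12.3 to 12.77 (median 12.62) fed and 11.43 to 11.93 (median 11.61) fasted and fell by 0.94 (limma adjusted p = 7.97e-05). Me1, malic enzyme and a source of NADPH, fell by 0.93 (SE 0.071, limma adjusted p = 1.84e-05), and Pgd of the pentose phosphate path fell by 0.58.

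Thrsp, a lipogenic protein responsive to feeding, fell by 0.96 (SE 0.13) and moved alike. After Adeno-GFP alone 13 genes of the list fell, and after Adeno-Cre alone 7. Srebf1, the factor that drives fatty acid synthesis, fell by 0.63 (SE 0.071, limma adjusted p = 0.000312), -1.01 after Adeno-GFP and -0.24 after Adeno-Cre. Its 95% interval of the difference was 0.46 to 1.08, and that difference did not pass after adjustment. Acly, which makes cytosolic acetyl-CoA, had -1.03 after Adeno-GFP and -0.38 after Adeno-Cre (interval 0.24 to 1.06). Both passed on average and after Adeno-GFP, and neither after Adeno-Cre. The 2 genes that rose were Dgat1 (0.49) and Mogat1 (0.43), acyltransferases of triglyceride formation. Mogat1 did not move alike, and 1 gene of the list rose without fasted Adeno-Cre replicate 2, fed Adeno-Cre replicates 1 or 2, fasted Adeno-GFP replicates 1 or 3 or any 1 of the fed Adeno-GFP arrays.

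Genes of glucose use divided. Of 16 genes of glycolysis and glucose uptake 5 fell and 3 rose, where 4.32% of all genes fell and 4.02% rose. The list median was -0.02. Pklr, the liver pyruvate kinase, measured 10.06 to 10.37 (median 10.17) fed and 8.95 to 9.55 (median 9.2) fasted. The ranges did not overlap, and Pklr fell by 0.98 (SE 0.076, limma adjusted p = 2e-05). Pdk4, the kinase that shuts off pyruvate dehydrogenase, measured 7.21 to 7.85 (median 7.54) fed and 8.18 to 9.17 (median 8.8) fasted and rose by 1.17 (SE 0.17, limma adjusted p = 0.00139), 1.21 after Adeno-GFP and 1.14 after Adeno-Cre. Mlxipl, the glucose-sensing factor also called ChREBP, fell by 0.39 on average (limma adjusted p = 0.00355) and did not move alike. Without fasted Adeno-GFP replicate 1 or fed Adeno-GFP replicate 2, 3 genes of the list fell, and without fasted Adeno-Cre replicate 1, 1 rose.

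Genes of fatty acid oxidation were higher in fasted liver. Of 35 measured PPARA targets and oxidation genes 27 rose and 0 fell, where 4.02% of all genes rose and 4.32% fell. Among the 35, 13 were higher alike (0.649% of all genes). The median was 0.36, with medians of 0.34 after Adeno-GFP and 0.36 after Adeno-Cre. Ppara itself did not pass (-0.03, SE 0.079). Genes of import into mitochondria rose. Cpt1a, the gate of the pathway, measured 10.89 to 11.14 (median 10.98) fed and 11.28 to 11.59 (median 11.41) fasted and rose by 0.43 (SE 0.052, limma adjusted p = 0.000478). The carnitine-acylcarnitine carrier Slc25a20 rose by 0.51, Cpt2 by 0.41 and Slc22a5, the carnitine transporter, by 0.78, all 3 alike. Acadm, the medium-chain dehydrogenase, measured 11.51 to 11.79 (median 11.74) fed and 12.04 to 12.21 (median 12.16) fasted. The states were apart on all arrays, and Acadm rose by 0.44 (SE 0.053, limma adjusted p = 0.000447). Hadha and Hadhb, the 2 subunits of the trifunctional protein, rose by 0.35 and 0.57, both alike. Acot1 (0.96) and Acot2 (0.70), thioesterases of a family with near-identical copies, rose alike, while Acot3 (0.54, SE 0.27) and Acot4 (0.26) did not pass.

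Hadha and Hadhb are neighbours read in opposite directions, and their 250-base upstream windows share 228 bases. The window of Hadhb, chr5:30155003-30155252 on the plus strand, is shown because this stretch lies upstream of both genes, which rose together. Capitals mark a match to TTCNNNGAA, the STAT5 motif, 125 bases before the start.
Hadhb: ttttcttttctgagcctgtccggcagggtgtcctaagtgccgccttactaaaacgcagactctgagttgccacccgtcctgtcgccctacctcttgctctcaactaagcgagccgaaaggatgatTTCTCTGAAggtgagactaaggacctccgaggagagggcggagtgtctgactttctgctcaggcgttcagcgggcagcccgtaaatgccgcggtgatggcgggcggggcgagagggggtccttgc
TTCNNNGAA was in the windows of 3 of 31 oxidation genes (9.68%) and of 9.13% of all genes. The matches of Hadha and Hadhb are 1 site in their shared stretch, read on opposite strands and counted for both genes. The DR1 element bound by PPARA was found in 1 of 31 (3.23%) and in 0.431% of all genes.

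Genes of peroxisomal and microsomal oxidation rose as well. Ehhadh, the peroxisomal bifunctional enzyme, measured 11.27, 10.70 and 10.88 on the fed Adeno-GFP arrays, 12.15, 12.49 and 11.67 on the fasted Adeno-GFP arrays, 10.82, 10.81 and 10.83 on the fed Adeno-Cre arrays and 12.03, 12.18 and 11.82 on the fasted Adeno-Cre arrays. The 3 fed Adeno-Cre arrays lay within 0.02 of each other, and no fasted array reached down to the fed ones. Ehhadh rose by 1.17 (SE 0.13, 2.25-fold, limma adjusted p = 0.00031). Cyp4a14, a microsomal fatty acid hydroxylase, had the largest rise of all genes that moved alike. It measured 11.66, 11.28 and 10.90 on the fed Adeno-GFP arrays, 12.98, 13.14 and 13.04 on the fasted Adeno-GFP arrays, 10.90, 10.79 and 10.74 on the fed Adeno-Cre arrays and 12.98, 12.97 and 12.69 on the fasted Adeno-Cre arrays. Cyp4a14 rose by 1.92 (SE 0.11, 3.79-fold, limma adjusted p = 1.56e-06), 1.77 after Adeno-GFP and 2.07 after Adeno-Cre. Cyp4a31 rose by 1.78 (SE 0.16), 2.15 after Adeno-GFP and 1.40 after Adeno-Cre, with an interval of -1.44 to -0.07 for the difference. Not every hydroxylase rose. Of 7 measured, 3 rose and 2 fell, where 4.02% of all genes rose and 4.32% fell. Cyp4f15 rose (0.41), and Cyp4a12a, a male-biased member, fell by 0.49. Cyp4f14 measured 8.92 to 9.53 (median 9.15) fed and 8.19 to 8.7 (median 8.39) fasted and fell by 0.80 (limma adjusted p = 8.04e-05). Cyp4a genes are near-identical copies, and cross-hybridisation was not tested.

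**Figure D2:**
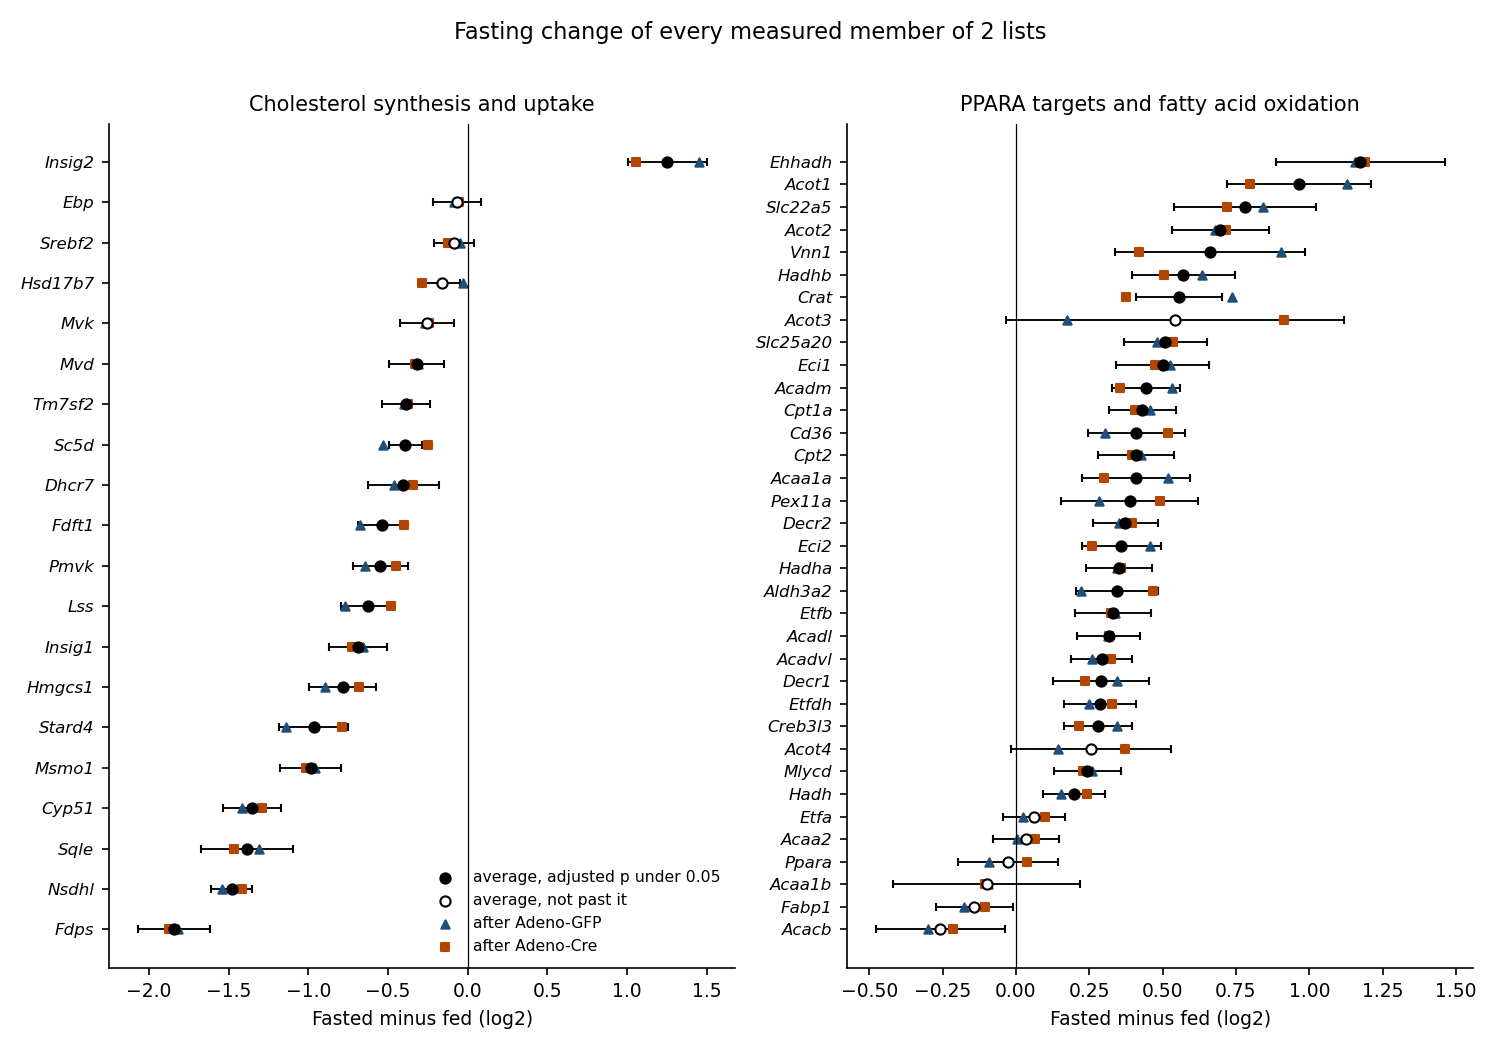
Fasted minus fed change (log2) of all 20 measured sterol genes (left) and all 35 PPARA targets and oxidation genes (right), with circles for the average over both injections, bars for its 95% interval, triangles for Adeno-GFP and squares for Adeno-Cre. In the left panel 15 filled circles lie below 0 and Insig2 above it, and in the right panel 27 lie above 0.

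Some genes of lipid storage and transport rose. Of 18 genes of lipid droplets and lipases 6 rose and 0 fell, where 4.02% of all genes rose. Plin2, the common droplet coat protein, rose by 0.38 (SE 0.058, limma adjusted p = 0.00182), and Pnpla2, the first triglyceride lipase, by 0.48, both alike, a call kept in 1 (Plin2) and 3 (Pnpla2) of the 12 fits without an array. Cidec, a protein of droplet growth, measured 6.22 to 6.86 (median 6.61) fed and 6.96 to 8.16 (median 7.58) fasted and rose by 1.04 (SE 0.18, limma adjusted p = 0.00389), 1.02 after Adeno-GFP and 1.06 after Adeno-Cre. It passed after Adeno-Cre (limma adjusted p = 0.0487) and missed the threshold after Adeno-GFP (0.0534). Of 21 apolipoprotein and lipoprotein genes 4 rose and 1 fell. Apoa4 measured 10.77, 10.50 and 10.67 on the fed Adeno-GFP arrays, 11.88, 11.68 and 11.80 on the fasted Adeno-GFP arrays, 10.30, 10.39 and 10.37 on the fed Adeno-Cre arrays and 11.78, 11.64 and 11.23 on the fasted Adeno-Cre arrays. No fasted array was as low as any fed one, and Apoa4 rose by 1.17 (SE 0.089, limma adjusted p = 1.84e-05). Scarb1, the HDL receptor, rose by 0.56 (SE 0.059) with the same value after each injection (0.56 after Adeno-GFP and 0.56 after Adeno-Cre). Sort1 fell by 0.45 on the probe set used, but its other probe set gave 0.1.

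Of 5 measured genes listed for ketone body synthesis, 0 rose and 1 fell, where 4.02% of all genes rose and 4.32% fell. In this list 4 of 5 genes lay above 0, with a median of 0.13, and 1 rose without fasted Adeno-GFP replicate 2. Oxct1, the enzyme that uses ketone bodies and is low in hepatocytes, fell by 0.32 (SE 0.069, limma adjusted p = 0.0135).

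Genes of amino acid breakdown were higher across many pathways. Of 52 measured genes 24 rose and 1 fell, where 4.02% of all genes rose and 4.32% fell. Among the 52, 11 were higher alike (0.649% of all genes) and 46 lay above 0, with a median of 0.23. Gldc, of the glycine cleavage system, measured 9.17, 9.36 and 9.40 on the fed Adeno-GFP arrays, 10.43, 9.90 and 10.13 on the fasted Adeno-GFP arrays, 9.14, 9.46 and 9.17 on the fed Adeno-Cre arrays and 10.03, 10.13 and 10.20 on the fasted Adeno-Cre arrays. All fasted arrays lay above all fed arrays, and Gldc rose by 0.85 (SE 0.092, limma adjusted p = 0.000229), 0.84 after Adeno-GFP and 0.86 after Adeno-Cre. Oat, which turns ornithine into glutamate semialdehyde, measured 10.93 to 11.64 (median 11.14) fed and 11.62 to 12.31 (median 12.01) fasted. These ranges overlapped across the injections, while within each injection the states were apart, and Oat rose by 0.78 (SE 0.077, limma adjusted p = 0.000123), 0.76 after Adeno-GFP and 0.81 after Adeno-Cre. Aass, the first enzyme of lysine breakdown, rose by 0.60 (SE 0.059). Methionine metabolism was represented by Ahcy (0.80), Cth (0.74) and Mat1a (0.38), all alike; the other probe set of Ahcy gave 0.3. Gpt, alanine aminotransferase, rose by 0.58 alike, and Gpt2 by 0.52 on average. Hal, the first enzyme of histidine breakdown, rose by 0.79 (SE 0.12) on average, 0.64 after Adeno-GFP and 0.93 after Adeno-Cre, without moving alike. The gene that fell was Csad (-0.61), of taurine synthesis.

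The urea cycle, which disposes of the nitrogen, moved in the same direction. Of 13 genes 8 rose and 0 fell, 2 of them alike, with a median of 0.28. The shares over all genes were 4.02% higher, 4.32% lower and 0.649% higher alike. Without fasted Adeno-Cre replicate 1, 5 of the 13 rose. Asl, argininosuccinate lyase, measured 10.36 to 11.45 (median 11.06) fed and 11.53 to 12.08 (median 11.72) fasted and rose by 0.76 (SE 0.11, limma adjusted p = 0.00128). Slc25a15, the mitochondrial ornithine carrier, rose by 0.54 alike, and Arg1, arginase, by 0.28 on average. Cps1, the entry enzyme, rose by 0.17 (limma adjusted p = 0.0484), a call lost in all 12 fits that left out an array.

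Some gluconeogenic genes rose. Of 21 measured genes 6 rose and 0 fell, where 4.02% of all genes rose, with 1 alike and a median of 0.04. Ppargc1a, a coactivator induced by glucagon, measured 8.64 to 9.38 (median 9.31) fed and 9.61 to 10.18 (median 10.05) fasted. The ranges did not overlap, and Ppargc1a rose by 0.79 (SE 0.12, limma adjusted p = 0.00188), 0.80 after Adeno-GFP and 0.78 after Adeno-Cre. Pcx, pyruvate carboxylase, rose by 0.37 and Got1, cytosolic aspartate aminotransferase, by 0.76, both on average. The 2 enzymes most used as fasting markers did not pass. Pck1 measured 11.54 to 12.39 (median 12.24) fed and 12.22 to 12.68 (median 12.57) fasted, with a change of 0.37 (SE 0.12, limma adjusted p = 0.0763). G6pc, glucose-6-phosphatase, measured 10.53 to 12.03 (median 11.78) fed and 11.09 to 11.85 (median 11.47) fasted, with a change of -0.17 (SE 0.21, limma adjusted p = 0.699). Both ranges overlapped. Fed Adeno-Cre replicate 3 was the lowest fed array for both genes, at 10.53 for G6pc against 11.74 or more on the other fed arrays and at 11.54 for Pck1 against 12.08 or more. Without that array G6pc had a change of -0.40 and passed (limma adjusted p = 0.0461), while Pck1 had 0.25 (0.082). Pck1 passed without fed Adeno-Cre replicate 1 (0.45, limma adjusted p = 0.0379).

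Among 35 measured genes known from the literature to respond to fasting or feeding, 21 passed on average and 14 did not. The share over all genes that passed was 8.34%. Igfbp1, an insulin-repressed binding protein, measured 9.38, 9.34 and 8.77 fed and 10.93, 10.42 and 10.19 fasted after Adeno-GFP, and 9.39, 10.69 and 7.35 fed and 10.39, 9.40 and 10.36 fasted after Adeno-Cre. The fed Adeno-Cre arrays spanned over 3 log2 units, and its change of 1.13 had an SE of 0.43 (limma adjusted p = 0.145). Without fed Adeno-Cre replicate 3, the lowest array, the change was 0.68 (0.171), and without fed Adeno-Cre replicate 2, the highest fed array, it was 1.51 and passed (limma adjusted p = 0.0201). Fgf21, the fasting hormone of the PPARA pathway, measured 6.44 to 6.74 (median 6.53) fed and 6.51 to 6.9 (median 6.8) fasted, near the array medians of 6.26 to 6.33, with a change of 0.18 (limma adjusted p = 0.18). Irs2 (0.30), Txnip (0.57), Tat (0.37), Klf15 (0.32) and Per1 (0.19) did not pass either. Fed Adeno-Cre replicate 3 was again the lowest fed array for Txnip (9.76), Tat (11.03) and Klf15 (7.35), and without it these 3 did not pass. It was also the lowest fed array for genes that rose, such as Ppargc1a (8.64), Got1 (10.99) and Asl (10.36). These genes kept the averaged call in each fit without an array. Irs2 passed without fed Adeno-Cre replicate 2, fasted Adeno-GFP replicate 3 or fed Adeno-GFP replicate 1, and Txnip without fasted Adeno-GFP replicate 1. Lpin1 had a change of 0.01 with an SE of 0.27. Igf1, measured more closely, had a change of 0.00 and an SE of 0.061.

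**Figure D3:**
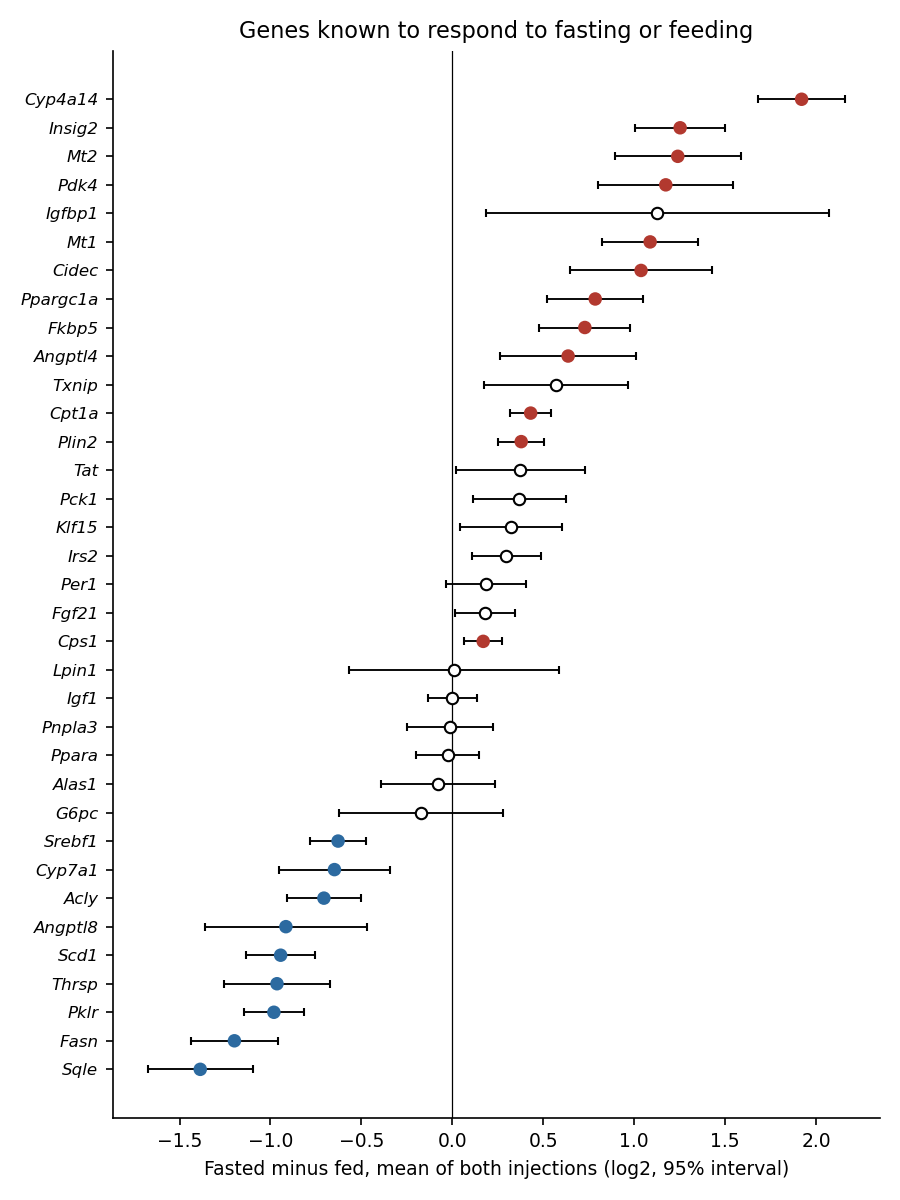
Fasted minus fed change (log2, mean of both injections) of 35 genes known to respond to fasting or feeding, with 95% intervals from limma; filled points passed an adjusted p of 0.05 and open points did not. Igfbp1 (1.13) and Lpin1 (0.01) have the widest intervals, and Pck1 and G6pc are open.

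Of 31 genes of insulin, FOXO and glucocorticoid response 7 rose and 2 fell, 3 higher alike. Over all genes 4.02% rose and 4.32% fell. The metallothionein Mt1 measured 8.89 to 9.45 (median 9.2) fed and 9.93 to 10.65 (median 10.3) fasted, rose by 1.09 (SE 0.12, limma adjusted p = 0.000286) and moved alike. Mt2 rose by 1.24, 1.70 after Adeno-GFP and 0.78 after Adeno-Cre, with an interval of -1.62 to -0.23 for the difference, which did not pass after adjustment. Fkbp5, a chaperone of the glucocorticoid receptor, rose by 0.73 and Klf9, a receptor target, by 0.62, both alike. Gadd45g, a stress-inducible gene whose fed mean (6.04) lay under the array medians, rose on average by 0.97, 1.53 after Adeno-GFP and 0.41 after Adeno-Cre (interval -1.48 to -0.75), a difference that did not pass after adjustment, and did not move alike. The 2 genes that fell were Nr3c1 (-0.22), the receptor itself, and Pik3r1 (-0.27); neither call held without fasted Adeno-Cre replicate 1, fed Adeno-Cre replicate 1 or fasted Adeno-GFP replicate 3. Without fasted Adeno-Cre replicate 2, fed Adeno-Cre replicate 2, fasted Adeno-GFP replicate 1 or fed Adeno-GFP replicates 2 or 3, 1 gene fell.

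Many growth hormone targets were lower, and they held the largest fall. Of 24 measured targets of growth hormone and STAT5, 11 fell and 0 rose, 6 of them alike, with a median of -0.33. For scale, 4.32% of all genes fell, 4.02% rose and 0.505% fell alike. Changes of 8 of the 24 targets lay above 0. Hsd3b5, a male-specific steroid dehydrogenase of liver, measured 11.17, 10.81 and 10.94 on the fed Adeno-GFP arrays, 6.70, 6.53 and 5.90 on the fasted Adeno-GFP arrays, 10.10, 10.64 and 10.33 on the fed Adeno-Cre arrays and 4.81, 6.21 and 4.64 on the fasted Adeno-Cre arrays. Fed and fasted arrays were more than 3 log2 units apart, and the fasted levels lay close to or under the array medians, so the true size is uncertain. The difference was -4.87 (SE 0.24, 29.1-fold, limma adjusted p = 6.8e-07). Selenbp2, a selenium-binding protein, measured 11.49 to 12.07 (median 11.63) fed and 9.68 to 10.84 (median 10.25) fasted and fell by 1.51 (limma adjusted p = 0.000447). Serpina12, also called vaspin, fell by 1.21 (SE 0.15), and the steroid hydroxylase Cyp7b1 by 0.90, both alike. Mup21 (-0.73) fell alike and Mup5 (-0.42) on average; the Mup genes are near-identical copies. Ghr, the growth hormone receptor, fell by 0.31 (SE 0.048, limma adjusted p = 0.00198) on average, -0.39 after Adeno-GFP and -0.23 after Adeno-Cre. Igf1, described above, had a change of 0.00 (SE 0.061).

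Further large falls lay outside the metabolic lists. Fabp5, a fatty acid binding protein, measured 9.72, 9.46 and 10.07 on the fed Adeno-GFP arrays, 6.05, 6.61 and 6.49 on the fasted Adeno-GFP arrays, 9.16, 8.71 and 9.10 on the fed Adeno-Cre arrays and 6.46, 6.43 and 6.01 on the fasted Adeno-Cre arrays. The fed and fasted arrays were apart by over 2 log2 units, and its 4 probe sets gave -2.08 to -3.04. The fasted levels lay near the array medians, so the true size is uncertain. Fabp5 fell by 3.03 (SE 0.14, 8.16-fold, limma adjusted p = 3.2e-07). Serpina4-ps1, a Serpina family pseudogene, measured 10.42 to 12.06 (median 11.22) fed and 7.1 to 9.07 (median 7.64) fasted and fell by 3.35 (SE 0.34). Related Serpina transcripts could hybridise to its probes. Ugt2b38, a glucuronosyltransferase, measured 6.31 to 7.49 (median 6.58) fed and 2.8 to 3.71 (median 3.41) fasted. Its fasted values lay far under the array medians, and the family has near-identical copies. Keg1, of the glycine N-acyltransferase family, measured 11.76, 11.74 and 11.78 on the fed Adeno-GFP arrays, 10.15, 10.21 and 10.19 on the fasted Adeno-GFP arrays, 11.86, 11.80 and 11.80 on the fed Adeno-Cre arrays and 10.03, 10.52 and 9.64 on the fasted Adeno-Cre arrays. The fed arrays were tightly grouped, and Keg1 fell by 1.67 (SE 0.11, limma adjusted p = 6.69e-06). The probe set named for the microRNA gene Mir1948, which does not measure the mature microRNA, fell by 1.26 (SE 0.17).

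Further large rises, leaving out predicted genes, were Cyp17a1, Slco1a4, Defb1, Slc16a5, Retsat and Hnf4aos. Cyp17a1, a steroid hydroxylase, measured 8.05, 8.62 and 8.19 on the fed Adeno-GFP arrays, 10.28, 9.77 and 10.48 on the fasted Adeno-GFP arrays, 8.64, 8.81 and 8.21 on the fed Adeno-Cre arrays and 10.05, 9.75 and 9.77 on the fasted Adeno-Cre arrays. It rose by 1.59 (SE 0.14, limma adjusted p = 7.77e-05). Slco1a4, an organic anion transporter, measured 9.54 to 10.45 (median 9.92) fed and 10.97 to 11.85 (median 11.27) fasted and rose by 1.39, 1.37 after Adeno-GFP and 1.41 after Adeno-Cre. Defb1, a secreted antimicrobial peptide, differed between the injections in level and not in direction, with 7.92, 7.72 and 6.90 fed and 8.91, 8.80 and 8.51 fasted after Adeno-GFP, and 8.11, 8.17 and 7.99 fed and 9.44, 9.22 and 9.77 fasted after Adeno-Cre. Fasted arrays exceeded fed arrays in both. Defb1 rose by 1.31 (SE 0.16, limma adjusted p = 0.000473). Retsat, retinol saturase, measured 10.4 to 10.65 (median 10.42) fed and 11.44 to 11.8 (median 11.65) fasted, with less spread within a state than most large rises, and rose by 1.16 (SE 0.064, limma adjusted p = 1.56e-06). Slc16a5, of the monocarboxylate transporter family, rose by 1.22 on the probe set used and had 0.88 on the other. Hnf4aos, transcribed antisense to Hnf4a, rose by 1.26 (SE 0.16), 0.98 after Adeno-GFP and 1.54 after Adeno-Cre. Hnf4a, a hepatocyte transcription factor, rose by 0.42 on average, 0.60 after Adeno-GFP and 0.24 after Adeno-Cre, and did not move alike.

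**Figure D4:**
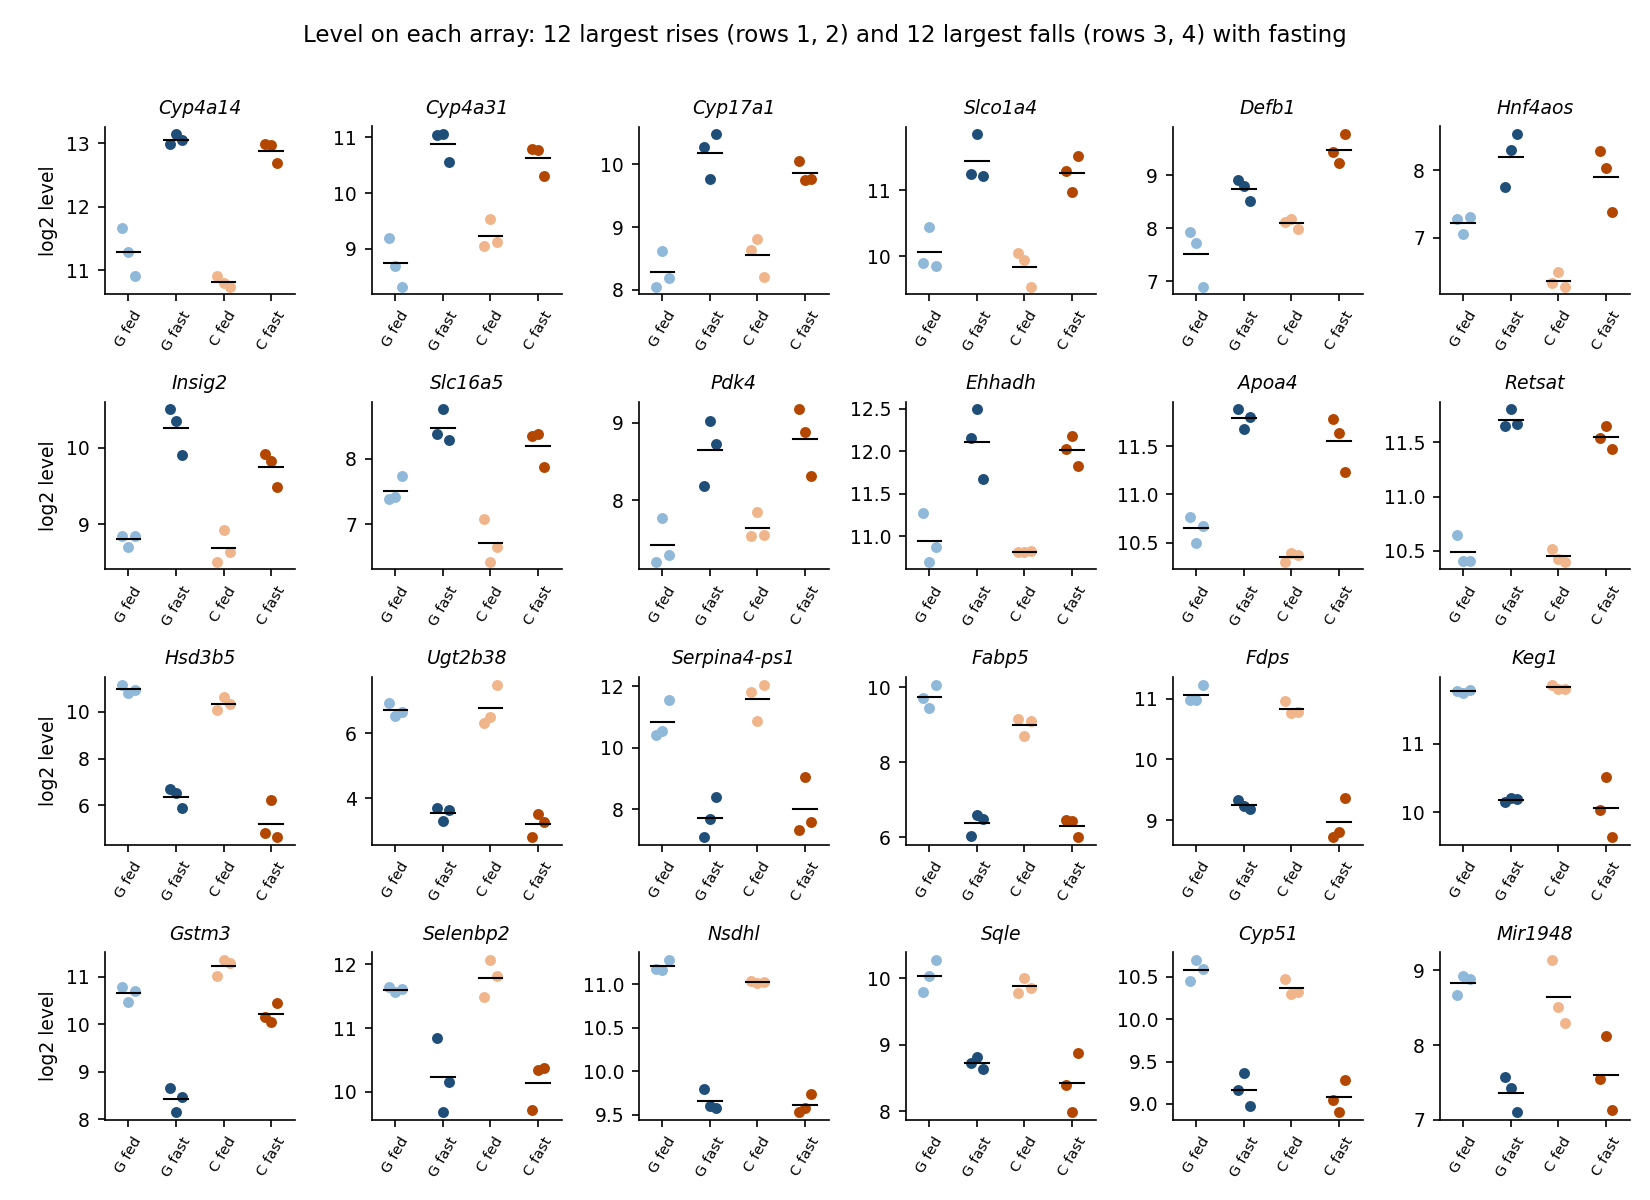
Log2 level on each array (points; bars are means of 3) of the 12 genes with the largest rise and the 12 with the largest fall among genes, other than predicted ones, that moved alike without overlap, by group (G, Adeno-GFP; C, Adeno-Cre). Each panel has its own axis, and in all 24 the 6 fasted points lie on 1 side of the 6 fed points.

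Glutathione and NADPH genes fell. Of 23 measured NRF2 targets and NADPH suppliers 11 fell and 0 rose, 5 alike, with a median of -0.29. The shares over all genes were 4.32% lower, 4.02% higher and 0.505% lower alike. Gstm3, a glutathione transferase, measured 10.78, 10.48 and 10.70 on the fed Adeno-GFP arrays, 8.65, 8.14 and 8.47 on the fasted Adeno-GFP arrays, 11.03, 11.36 and 11.30 on the fed Adeno-Cre arrays and 10.16, 10.05 and 10.44 on the fasted Adeno-Cre arrays. The fasted Adeno-GFP arrays were far below all others, and the fasted Adeno-Cre arrays overlapped no fed array. Gstm3 fell by 1.62 (SE 0.10, limma adjusted p = 4.11e-06), -2.24 after Adeno-GFP and -1.01 after Adeno-Cre, with an interval of 0.77 to 1.67 for the difference, which did not pass after adjustment. Gstm6 fell by 0.62 and Gstm1 by 0.42, both alike; the family has near-identical copies. The list shares Me1 and Pgd with fatty acid synthesis.

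Drug-metabolising genes divided. Of 25 genes of the CAR and PXR response 9 rose and 3 fell, where 4.02% of all genes rose and 4.32% fell. Among the 25, 3 were higher and 1 lower alike. Cyp1a2 measured 11.37 to 12.02 (median 11.81) fed and 10.6 to 11.17 (median 10.92) fasted and fell by 0.87 (SE 0.086, limma adjusted p = 0.000124). Cyp2c39 rose by 0.50 alike. Sult1e1, an estrogen sulfotransferase, rose by 1.89 (SE 0.46) on average and passed in neither injection alone. Cyp2b10, the standard CAR target, rose by 1.06 on average and did not move alike. Cyp2c55 fell by 1.93 on the probe set used and had -0.25 on the other.

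Bile acid genes also divided, with 5 of 24 higher and 4 lower, where 4.02% of all genes rose and 4.32% fell. Cyp7a1, the rate-limiting enzyme of bile acid synthesis, fell by 0.65 (SE 0.14, limma adjusted p = 0.0142) on average, while Cyp8b1, which sets the bile acid mixture, rose by 0.71. Acox2, of side-chain shortening, rose by 0.57 alike. The uptake transporters Slco1a1 (-0.63) and Slco1a4 (1.39) moved in opposite directions, both alike.

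Some secreted factors and clock genes changed. Of 22 secreted factors 3 rose and 5 fell, where 8.34% of all genes were called. Inhba, a subunit of activin, measured 7.54 to 7.89 (median 7.66) fed and 6.39 to 6.9 (median 6.75) fasted and fell by 0.97 (SE 0.090, limma adjusted p = 8.04e-05), and Igfbp2 rose by 0.83, both alike. Angptl8, induced by feeding, fell by 0.92 on average, and Angptl4, a lipase inhibitor and PPARA target, rose by 0.64, a call kept in 3 of 12 fits without an array. The list had 3 genes lower without fasted Adeno-Cre replicate 1, fed Adeno-Cre replicates 1 or 3, fasted Adeno-GFP replicate 3 or fed Adeno-GFP replicates 1 or 3. Of 18 clock genes 3 rose and 2 fell: Clock rose by 0.48 and Bhlhe40, a clock repressor, fell by 0.72, both alike, and Arntl (0.66), the partner of Clock, and Ciart (0.64) rose on average; without fed Adeno-Cre replicate 1, 1 clock gene fell.

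Markers of hepatocyte zones moved with these lists. Over all genes 4.02% rose and 4.32% fell. Of 12 periportal markers 6 rose and 0 fell, and 4 of the 6 (Arg1, Ass1, Asl and Hal) are enzymes of the urea cycle or amino acid breakdown. Of 15 pericentral markers 3 fell and 1 rose: Rgn measured 12.36 to 12.64 (median 12.53) fed and 11.58 to 12.05 (median 11.85) fasted and fell by 0.69 (limma adjusted p = 1.84e-05), Cyp1a2 and Cyp2c29 fell, and Oat rose. The mean over the periportal markers was 10.11 to 10.58 fed and 10.63 to 10.85 fasted, and over the pericentral ones 9.92 to 10.26 and 9.88 to 10.15. Their part in the pathway results was not tested.

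**Figure D5:**
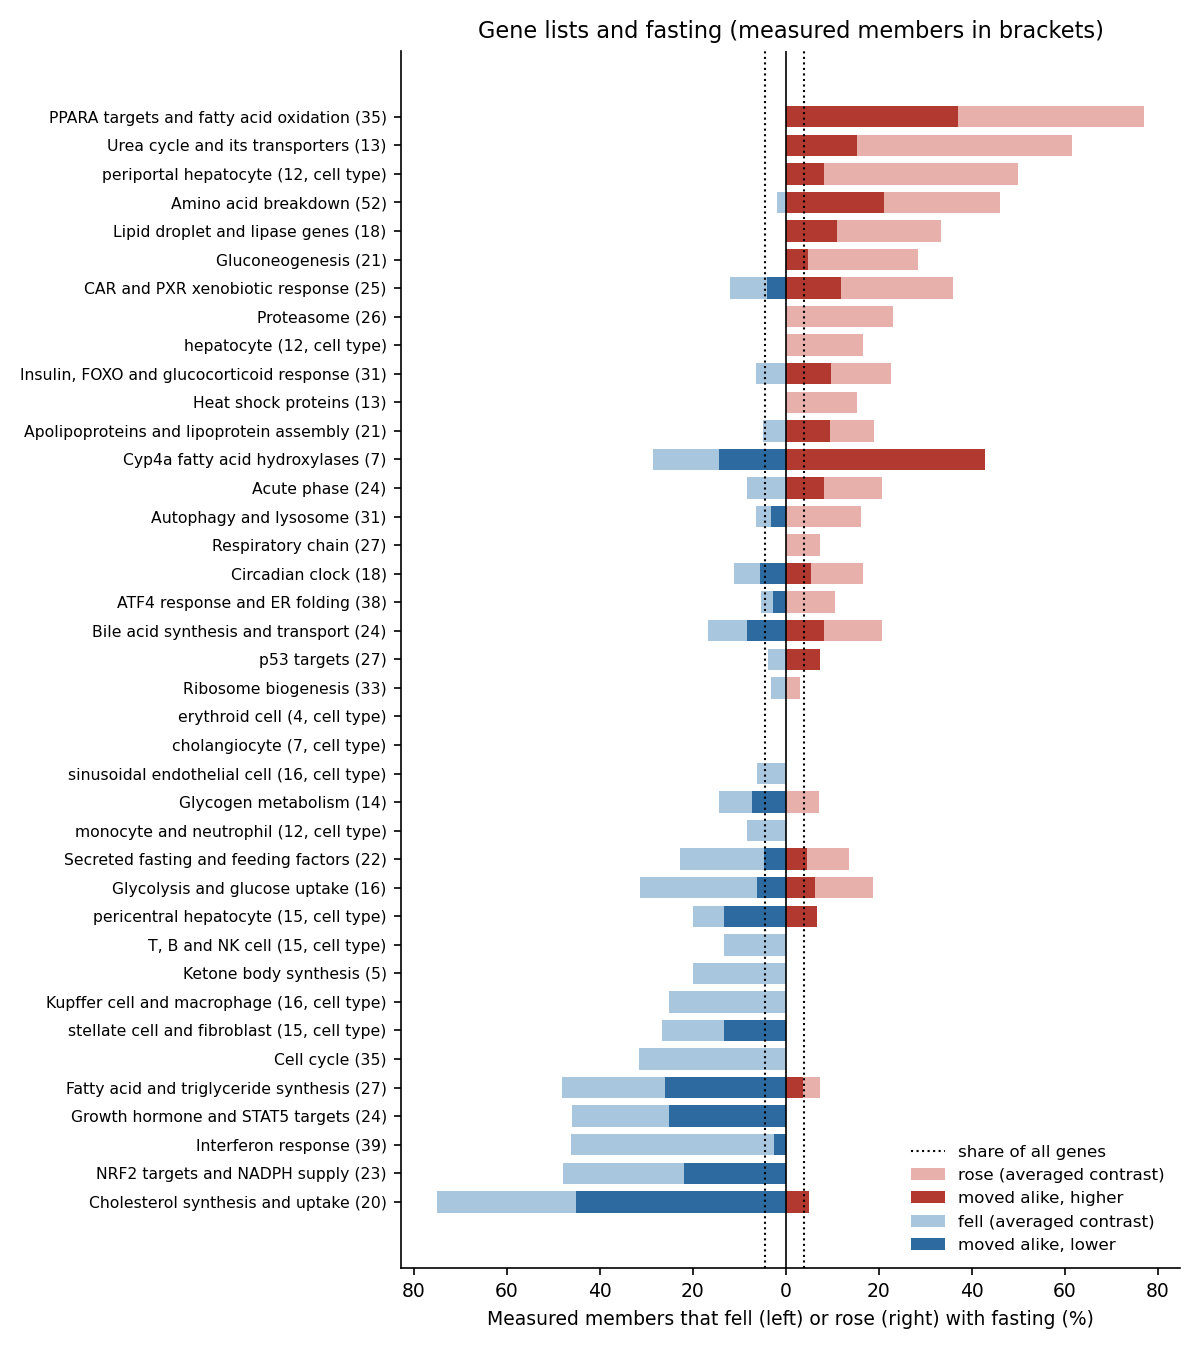
Share of measured members of each gene list (number in brackets) that rose (right) or fell (left) with fasting at a limma adjusted p under 0.05 in the averaged contrast, with the part that moved alike in darker colour; dotted lines mark the shares over all genes, 4.02% and 4.32%. Oxidation genes reach farthest right (27 of 35) and sterol genes farthest left (15 of 20), and of the 18 interferon genes that fell 1 moved alike.

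Calls on interferon and cell cycle genes came mostly from 1 injection each. Over all genes 37.5% of the Adeno-GFP calls and 43.2% of the Adeno-Cre calls repeated after the other. On average 4.32% of all genes fell. Of 39 interferon response genes 18 fell on average, but 1 alike: 1 fell after Adeno-GFP and 21 after Adeno-Cre, with medians of -0.1 and -0.91. Gbp10, an interferon-induced GTPase, measured 8.77, 9.56 and 9.10 on the fed Adeno-GFP arrays, 8.34, 7.94 and 8.37 on the fasted Adeno-GFP arrays, 11.42, 10.95 and 10.42 on the fed Adeno-Cre arrays and 8.75, 8.89 and 8.65 on the fasted Adeno-Cre arrays. The fed Adeno-Cre arrays were the highest of the 4 groups. Cxcl9, a chemokine, was the gene that fell alike (-0.95 after Adeno-GFP and -1.08 after Adeno-Cre). Of 35 cell cycle genes 11 fell on average and 0 alike: 10 fell after Adeno-GFP and 0 after Adeno-Cre, with medians of -0.75 and -0.26. Kif11, a spindle motor, measured 7.70, 8.21 and 7.34 on the fed Adeno-GFP arrays, 6.66, 6.26 and 6.09 on the fasted Adeno-GFP arrays, 9.23, 9.09 and 9.15 on the fed Adeno-Cre arrays and 8.38, 8.81 and 8.97 on the fasted Adeno-Cre arrays. The fasted Adeno-GFP arrays were the lowest, and the Adeno-Cre arrays of both states lay above all Adeno-GFP arrays. The difference between injections had an unadjusted p under 0.05 in limma for 28 of 39 interferon and 12 of 35 cell cycle genes. This held for 1676 of all 22180 genes. After adjustment it passed for none of the genes on these 2 lists, so a difference between the injections is not shown for single genes. The cell cycle count was 7 without fasted Adeno-Cre replicate 1, fed Adeno-Cre replicates 1 or 3 or fed Adeno-GFP replicate 2, and 21 without fasted Adeno-GFP replicate 1.

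Some markers of other liver cells fell. Of 16 Kupffer cell markers 4 fell and 0 rose, where 4.32% of all genes fell, none alike, with the mean over the list at 7.9 to 8.32 fed and 7.61 to 8.38 fasted; without fed Adeno-Cre replicate 3, 2 fell. Of 15 stellate cell and fibroblast markers 4 fell and 0 rose (means 7.92 to 8.17 fed and 7.7 to 8.04 fasted). Lrat, the retinol-storing enzyme of stellate cells, measured 8.68 to 9.22 (median 8.98) fed and 8.03 to 8.41 (median 8.36) fasted and fell by 0.64 (SE 0.080, limma adjusted p = 0.000589), and Col1a2 fell by 0.59, both alike; the other probe set of Col1a2 gave -0.15. Of 16 endothelial markers 1 fell (means 7.92 to 8.46 and 8.09 to 8.41), of 15 lymphocyte markers 2 (6.16 to 6.43 and 6.05 to 6.19) and of 12 monocyte and neutrophil markers 1 (5.62 to 5.76 and 5.55 to 5.96), 10 of these 12 being under the array median in both states. None of 7 cholangiocyte (5.77 to 5.98 and 5.6 to 5.96) and 4 erythroid markers (5.85 to 6.0 and 5.79 to 6.18) passed. The endothelial, monocyte and lymphocyte calls on Fcgr2b, Ly6c2 and Gzma were kept in 2, 5 and 3 of the 12 fits without an array. Their part in the results for whole liver was not tested.

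Slc44a3, a choline transporter-like gene, was the gene called in opposite directions. It measured 8.16, 8.18 and 7.95 on the fed Adeno-GFP arrays, 7.51, 7.41 and 7.57 on the fasted Adeno-GFP arrays, 7.97, 7.96 and 7.84 on the fed Adeno-Cre arrays and 8.27, 8.40 and 8.49 on the fasted Adeno-Cre arrays. Fasted arrays were below fed arrays after Adeno-GFP and above them after Adeno-Cre. The changes were -0.60 after Adeno-GFP and 0.47 after Adeno-Cre, and their difference was 1.065 (95% interval 0.79 to 1.34, limma adjusted p = 0.0481). That call was lost in 11 of the 12 fits without an array (adjusted p from 0.0365 to 0.257 over the 12), under a second quantile normalisation (0.0522) and with all probe sets tested (0.144). The averaged change was -0.07 (SE 0.064), which describes neither group of mice.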

How the data were processed

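Total liver RNA (200 ng, integrity number above 7) was labelled for 12 Affymetrix arrays, per the labels' protocols. The authors deposited log2 values for each probe set, with RMA named in the submitters' processing notes; its software, the probe annotation and the build were not stated there. RMA equalises the distributions of the arrays, so a shift of all genes would be removed, and it compresses dim values. No detection calls were used.

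Of 41345 probe sets, a platform annotation named 1 gene for 23521, several for 1814 and did not list 16010. Of the named, 23328 had a gene identifier in RefSeq and 0 symbols changed. For each gene the probe set of highest mean over all arrays was used (22180 genes, 1082 with several). Limma 3.58.1 (R 4.3.3) fitted 4 group means with eBayes; the fasting contrast is the mean of both within-injection differences, and p-values were adjusted over these genes. On simulated data the scripts were tested first. SDs with n = 6 span both injections. Lists (29 pathway and 10 cell type lists, 796 of 881 genes measured; some genes are on several) are given by counts and medians.

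Named by rule were the 12 largest rises and falls among genes moved alike without overlap, leaving out predicted genes (such as Rik symbols), up to 4 genes of smallest p per list, and 43 known fasting genes (35 measured). Other list members were named after their values were seen. The comparison, members and lists were chosen with earlier results of these data known. Same-numbered arrays of different groups had deviations correlated at -0.091 to 0.147, so numbers do not pair samples. Alternatives left out dim probe sets or 1 array, changed normalisation, variance prior or probe set rule, added a replicate block, or fitted diet and injection additively. Some list genes were not analysed here and are not reported.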

Additional observations from a re-analysis of the deposited data

Results flagged for a closer look

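Slc44a3 was the gene of 22180 whose fasting change differed between the injections after adjustment: the difference, Adeno-Cre minus Adeno-GFP, was 1.065 on the log2 scale (limma adjusted p = 0.0481), with opposite directions in the 2 injections. Of the 12 fits without an array, it kept this call without fed Adeno-GFP replicate 3, and the adjusted p ran from 0.0365 to 0.257 over them.

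Probe sets that name no single gene carried fasting signal that the gene-based comparison does not use. When all 41345 probe sets were adjusted together, 493 of the 17824 without a single gene name passed the averaged threshold (2.77%), against 5.11% of those naming 1 gene; 271 were higher and 222 lower with fasting, with sizes up to 2.42 on the log2 scale.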

How the results depend on the processing

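No result that passed changed direction under the alternatives run. Among genes that did not pass, Lpin1 went from 0.01 to -0.225 without fed Adeno-Cre replicate 3. Of the main counts (averaged 1850, Adeno-GFP 682, Adeno-Cre 592, moved alike 256, difference 1), those past 1.5 times were as follows. Testing all probe sets, with more tests to adjust for, gave 1134, 292, 235, 103 and 0. Leaving out dim probe sets, with fewer tests, gave 1160 after Adeno-GFP, 1049 after Adeno-Cre and 480 alike. A trended and robust prior gave 1038, 935 and 423; the cause was not tested. A second quantile normalisation gave 0 genes for the difference. Leaving out 1 array, which leaves fewer samples, gave 1239 to 1790 averaged calls, 275 to 720 after Adeno-GFP, 207 to 713 after Adeno-Cre, 105 to 238 alike and 0 to 1 for the difference. Averaging probe sets gave 1852 averaged calls and an additive fit 1789.

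With the replicate number as a block, 1658 averaged calls, 587 after Adeno-GFP, 552 after Adeno-Cre, 223 alike and 0 for the difference were found (Slc44a3, adjusted p = 0.312); the numbers do not pair the arrays. Of 155 genes named by rule 127 of the 140 called kept the averaged call without any 1 array. Those that lost it without at least 1 were Acta2, Angptl4, Cps1, Fcgr2b, Gzma, Hspb1, Ly6c2, Lyz2, Nr1d2, Polr1b, Rrn3, Sdhd and Slc40a1. Of 73 genes named by rule that moved alike 34 did so in all 12 fits. Without a detection call, falls to levels under the array medians (12 of the 256 genes) have no certain size.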

Other observations

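Several groups of genes outside intermediary metabolism gave values not described above. For scale, 4.02% of all genes rose and 4.32% fell. Of 26 proteasome genes 6 rose on average and 0 fell, 25 of 26 lay above 0 with a median of 0.14, and 0 moved alike; Psmd4, a ubiquitin receptor of the regulatory particle, rose by 0.40 (SE 0.055, limma adjusted p = 0.00109). Of 31 autophagy and lysosome genes 5 rose and 2 fell (1 fell in 11 of the 12 fits without an array), with 3 higher without any 1 of 6 arrays (fasted Adeno-Cre replicate 1, fed Adeno-Cre replicates 1 and 3, fasted Adeno-GFP replicate 1, fed Adeno-GFP replicates 1 and 2). Ulk2, a kinase of autophagy initiation, fell by 0.61 (SE 0.061, limma adjusted p = 0.000138), -0.58 after Adeno-GFP and -0.64 after Adeno-Cre, and Ctsl, a lysosomal protease, rose by 0.27 (SE 0.047). Of 14 glycogen genes 2 fell and 1 rose: Pygl, liver glycogen phosphorylase, fell by 0.49 (SE 0.049, limma adjusted p = 0.000143) and moved alike, Gbe1, the branching enzyme, fell by 0.39, and Gaa, which breaks down lysosomal glycogen, rose by 0.43.

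Stress and growth lists follow, where 8.34% of all genes were called. Of 38 genes of the ATF4 response and ER folding 4 rose and 2 fell (4 fell without fasted Adeno-Cre replicate 2), and Ern1, the ER stress sensor, fell by 0.57 alike (SE 0.075). Of 33 ribosome biogenesis genes 1 rose and 1 fell, of 13 heat shock genes 2 rose and of 27 respiratory chain genes 2 rose, calls that were lost in part without 1 of several arrays. Of 24 acute phase genes 5 rose and 2 fell: Lbp, which binds bacterial lipopolysaccharide, measured 10.1 to 10.5 (median 10.22) fed and 10.88 to 11.21 (median 11.01) fasted and rose by 0.74 (SE 0.068, limma adjusted p = 8.11e-05), and Orm1 fell by 0.36. Of 27 p53 targets 2 rose alike, Dcxr (0.60) and Ei24 (0.38), a call kept in 12 and 1 of the 12 fits without an array. Without fasted Adeno-GFP replicate 2, 4 rose on average, and without fed Adeno-Cre replicate 3, fasted Adeno-GFP replicate 1 or fed Adeno-GFP replicate 3, 2 fell. Plk2 fell on average (-0.56; -0.86 after Adeno-GFP and -0.25 after Adeno-Cre).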
